A study of Rattus norvegicus with 8 samples.

Results

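Cells of the vessel wall carry proteins that keep clotting, clot removal and complement attack in check, and 8 genes of this kind were followed here in rat pulmonary artery smooth muscle cells: Thbd, F3, Tfpi, Plat, Plau, Plaur, Cd55 and Cd59. They were taken by symbol, as every probe set (a group of short probes for 1 transcript) annotated to 1 of these genes alone. This gave 10 of the 8740 probe sets on the array that are not control features, with 2 probe sets each for Thbd and Cd55. The annotation names the Cd59 gene Cd59b, and it was matched through the gene table, which lists Cd59 as a synonym. The cells were primary cultures grown from explants of pulmonary arteries of adult Sprague-Dawley rats, with endothelium and adventitia stripped off before culture. Cells were left untreated (control) or received S-nitrosoglutathione, GSNO, which releases nitric oxide, for 1 h, 2 h or 4 h. Each of the 4 groups has 2 arrays, numbered 1 and 2. Arrays with the same number are called pair 1 and pair 2 where fold changes are taken within them. The concentration of GSNO is given as 100 μmol/L in one place and 100 mmol/L in another, and neither was taken as fact. Passage number, the animals behind each preparation and the hour at which control cells were harvested were not given in the sources used here, so time in culture and GSNO cannot be told apart.

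Clotting in tissue starts when tissue factor (F3) meets plasma factor VII, and tissue factor pathway inhibitor (Tfpi) blocks that complex. Thrombomodulin (Thbd) binds thrombin on the cell surface and turns it from a clotting enzyme into an activator of the anticoagulant protein C. The plasminogen activators Plat (tissue type) and Plau (urokinase) make plasmin, which dissolves fibrin, and Plaur is the cell surface receptor of urokinase. Cd55 speeds the decay of the complement convertases and Cd59 blocks assembly of the membrane attack complex. Thrombomodulin and tissue plasminogen activator are known mostly from endothelium, but vascular smooth muscle cells make them too.

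Signal is the array software's brightness value for a probe set, in arbitrary linear units, and the values of different probe sets were not compared with each other. The median signal of an array lay between 100.0 and 141.2, and the 40th percentile of its array, used here as the mark of a weak signal, between 57.2 and 91.0. The arrays numbered 1 and those numbered 2 were scanned on different days from different chip lots. Arrays with the same number deviated together from their group means, with correlations between 0.387 and 0.569 over all 6 pairs of groups. Each test is therefore given as fitted by limma without the array number and with it as a replicate block, the second marked "with the block". The threshold is an adjusted p of 0.05 over all 5877 probe sets kept by a filter on weak signals. No other array came from the chip lot of array 1 at 1 h, so for that array lot and exposure cannot be told apart. Of the arrays numbered 1, control and 2 h are recorded as 1 experiment and 1 h and 4 h as another. The arrays numbered 2 all share a further experiment. In pair 1, experiment and exposure therefore cannot be told apart at 1 h and 4 h against control.

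The smooth muscle markers Acta2 and Tagln gave 6747 to 23826 and 9539 to 21306 over the arrays, while Des, desmin, stayed at 13.4 to 29.7. Among endothelial markers, Pecam1 gave 40.2 to 129 and Vwf 8.78 to 109, and the probe sets of Vwf, Kdr, Sele and Icam2 failed the filter. Flt1 was kept and gave 106 to 332, above the 40th percentile on every array. For Nos3, 3 of 6 probe sets were kept, and the 6 gave 4.00 to 219. The summed signal of the 13 endothelial probe sets was 543 and 817 on the 4 h arrays, below the 934 and 935 on the control arrays. The sum was 828 and 1062 at 1 h and 867 and 750 at 2 h, and 0 of the 5 kept endothelial probe sets passed at any time by limma, with or without the block. Summed signal of the 16 fibroblast and adventitia probe sets was 56385 and 55539 at 4 h, below the 65974 and 66524 in control. At 1 h this sum was 45888 and 71176, and at 2 h 49633 and 59722. In this list Col1a1, Col1a2 and Col3a1 gave at least 3692, 7107 and 2909, and Dcn, Lum and Pdgfra at most 372, 569 and 279. Of the 12 kept, 1 was lower at 4 h in both fits and 1 at 1 h with the block. For the 15 smooth muscle probe sets the sum was 113286 and 80740 at 4 h, against 126968 and 92610 in control, and 1 of the 14 kept was lower at 4 h with the block. Of all kept probe sets, 3.68% were lower at 4 h with the block. In either direction, 1.53% passed at 4 h without it and 1.34% at 1 h with it. The part of these marker shifts in the results that follow was not tested. In a whole culture, a change in the number of cells of a type and a change in RNA per cell cannot be told apart.

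Signal of 1 of the 2 probe sets of the complement regulator Cd55 rose by 4 h of GSNO, while the other passed in neither fit. The Cd55 probe set that rose had passed the filter through its 2 h and 4 h arrays only. Transcripts of the anticoagulant receptor Thbd and the plasminogen activator Plat rose with the block. Mean signal of Plat was 4.78 times control at 1 h, and that of Cd55 was highest at 4 h. F3, Plau, Plaur and Cd59 passed in neither fit, and Tfpi was too weak to test. At 4 h, 1 of the 10 probe sets passed without the block, where 1.53% of all kept probe sets did, and 4 passed with the block, where 7.93% did. At 1 h, 0 passed without the block (0.527% of all, by limma) and 2 with it (1.34%). At 2 h, 0 passed without the block (0.97% of all, by limma) and 3 with it (3.16%). In the fit without the block, 177 of the kept probe sets had an unadjusted p under 0.05 at 1 h and 360 at 2 h.

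**Figure D1:**
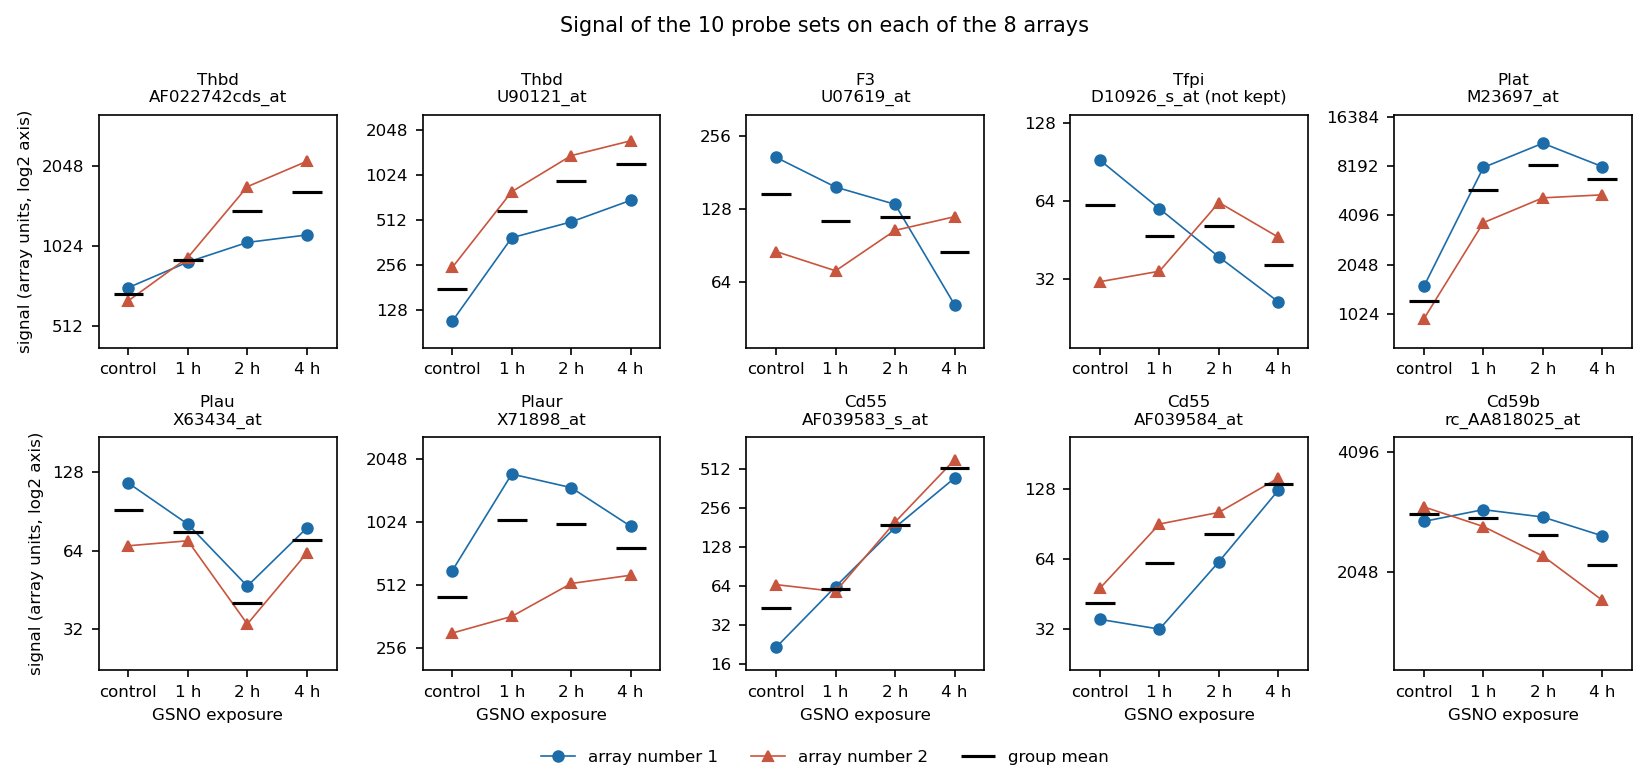
Signal (array units, log2 axis with its own range in each panel) of the 10 probe sets in control cells and after 1, 2 and 4 h of GSNO. Points are single arrays, joined by array number, and bars are group means (n = 2). Both lines climb for both Thbd probe sets, and both stay above their control points for Plat, while the lines of F3 and Tfpi cross.

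Plat encodes tissue-type plasminogen activator. Its signal was 1504 and 952 on the control arrays numbered 1 and 2, 8052 and 3696 at 1 h, 11337 and 5248 at 2 h, and 8150 and 5474 at 4 h. Both arrays of every exposed group lay above both control arrays. At 1, 2 and 4 h, 10.1%, 12.9% and 13.4% of all kept probe sets did the same. The mean signal was 5874 ± 3080 (SD, n = 2) at 1 h, 8292 ± 4306 at 2 h and 6812 ± 1892 at 4 h, against 1228 ± 390 in control.

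These means correspond to ratios of 4.78, 6.75 and 5.55 over control. The log2 fold change was 2.17 ± 0.49 at 1 h, 2.67 ± 0.49 at 2 h and 2.46 ± 0.49 at 4 h (SE). Without the block these missed the threshold (limma adjusted p = 0.222, 0.0559 and 0.0594). With the block the errors shrank to 0.18 and Plat rose at each time (limma adjusted p = 0.000126, 2.89e-05 and 3.65e-05). Pair 1 gave 2.40, 2.90 and 2.42, and pair 2 gave 1.93, 2.44 and 2.50. At 1 h Plat had the largest fold change of the 9 kept probe sets of these genes, and 4 h differed from 1 h by 0.29 ± 0.49 on the log2 scale (limma adjusted p = 0.923, and 0.451 with the block). Its fold change ranked 41 from the top of 5877 probe sets at 1 h, 38 at 2 h and 47 at 4 h.

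Urokinase gave no such values. Plau signal was 116 and 66.8 in control, 80.8 and 69.8 at 1 h, 46.8 and 33.5 at 2 h, and 78.1 and 62.6 at 4 h. Both 2 h arrays lay below both control arrays, and 17.0% of all kept probe sets did the same. The signal reached the 40th percentile on 3 of the 8 arrays, so most of these values are weak. The log2 fold change at 2 h was -0.85 ± 0.40 (limma adjusted p = 0.906, and 0.41 with the block).

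Plaur, the urokinase receptor, was strong on all arrays but parted by array number. Signal was 599 and 303 in control, 1728 and 363 at 1 h, 1489 and 521 at 2 h, and 975 and 570 at 4 h. Each exposed array lay above the control array with its own number, but the groups overlapped at every time. At 1 h the ratio over control was 2.88 in pair 1 and 1.20 in pair 2. On the log2 scale the change was 0.87, 1.01 and 0.78 at 1, 2 and 4 h, with an SE of 0.75. None passed (limma adjusted p of 0.761 or more, and of 0.16 or more with the block).

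Thbd, thrombomodulin, was read by 2 probe sets that moved the same way by different amounts. The probe set U90121_at gave 108 and 247 in control, 391 and 794 at 1 h, 499 and 1384 at 2 h, and 695 and 1739 at 4 h. The probe set AF022742cds_at gave 712 and 635 in control, 888 and 923 at 1 h, 1052 and 1705 at 2 h, and 1122 and 2124 at 4 h. For both probe sets, both arrays of each exposed group lay above both control arrays, and each array number was higher at each later time. Of all kept probe sets, 10.1%, 12.9% and 13.4% lay above control in this way at 1, 2 and 4 h.

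For U90121_at the ratio of mean signals over control was 3.33, 5.30 and 6.85 at 1, 2 and 4 h. Log2 fold changes were 1.64, 2.20 and 2.59, with an SE of 0.64, and missed the threshold without the block (limma adjusted p = 1.00, 0.318 and 0.107). With the block the SE was 0.21 and Thbd rose at each time (limma adjusted p = 0.00246, 0.000241 and 5.46e-05). At 4 h the log2 fold change was 2.47 in pair 1 and 2.71 in pair 2. This probe set was also higher at 4 h than at 1 h with the block (0.95 ± 0.21, limma adjusted p = 0.0286; 0.744 without it). This last call held in 3 of 8 fits that each left out 1 array with the block kept, with an adjusted p up to 0.26. The recorded experiments split the arrays numbered 1, with control and 2 h apart from 1 h and 4 h. All arrays numbered 2 share an experiment. With the recorded experiment as block in place of the array number, U90121_at passed at 2 h (limma adjusted p = 0.00191) and 4 h (0.00361), and missed the threshold at 1 h (0.0508) and for 4 h against 1 h (0.0578).

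For AF022742cds_at the ratios of mean signals were 1.34, 2.05 and 2.41. The log2 fold change at 4 h was 1.18 ± 0.35 (limma adjusted p = 0.196) and passed with the block (0.0211). It was 0.64 in pair 1 and 1.71 in pair 2. The call with the block was lost with the recorded experiment as block in its place (adjusted p = 0.11), and also without the control array numbered 2 (adjusted p = 0.198) and without the 4 h array numbered 2 (0.114). The 2 probe sets had the same direction at all 3 times, and only U90121_at passed with the block at 1 h and 2 h.

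F3, tissue factor, had differences of opposite sign in the 2 array numbers at 2 h and 4 h, and of the same sign at 1 h. Its signal was 209 and 85.7 in control, 158 and 71.4 at 1 h, 134 and 105 at 2 h, and 51.9 and 119 at 4 h. At 4 h the log2 fold change was -1.65 in pair 1 and 0.39 in pair 2. The mean was -0.63 ± 0.53, which did not pass (limma adjusted p = 0.718, and 0.481 with the block).

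Tfpi, the inhibitor of the tissue factor complex, was too weak to test. It gave 91.9 and 31.3 in control, 59.7 and 34.3 at 1 h, 38.9 and 63.1 at 2 h, and 26.1 and 46.4 at 4 h. It reached the 40th percentile on 1 array, a control array, and failed the filter. The groups overlapped at every time.

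**Figure D2:**
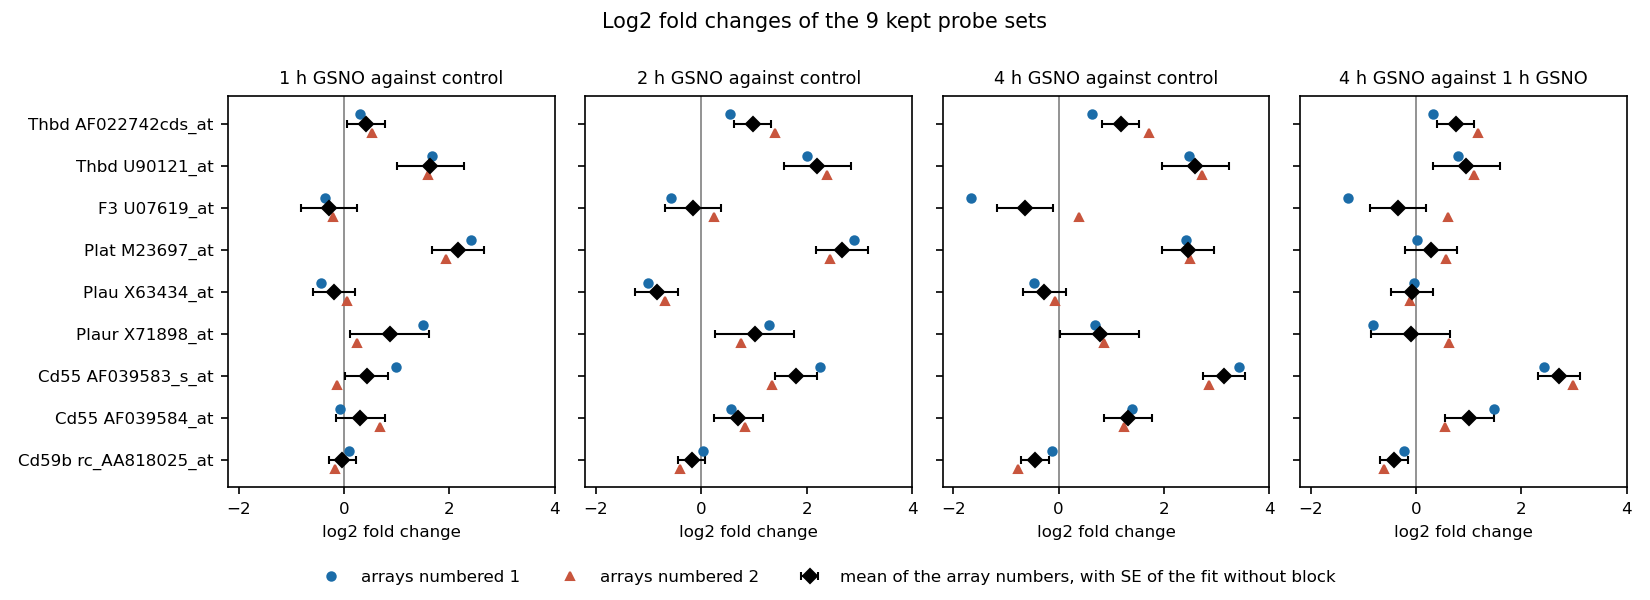
Log2 fold change of the 9 kept probe sets in 4 comparisons. Diamonds are means with the SE of the fit without the block, circles and triangles are the differences between arrays of the same number. In all 3 comparisons with control, the same-numbered differences lie inside the error bars for Plat and Thbd U90121_at. They do so too for Plau, Plaur and Cd55 AF039584_at, which were not called, so this does not set called probe sets apart.

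Cd55, the decay accelerating factor, was the 1 member that passed without the block. The probe set AF039583_s_at gave 21.5 and 65.6 in control, 63.4 and 58.1 at 1 h, 181 and 200 at 2 h, and 437 and 605 at 4 h. Control and 1 h arrays overlapped, and both 2 h and both 4 h arrays lay above all of them. Against control alone, 12.9% and 13.4% of all kept probe sets lay above in this way at 2 h and 4 h. It reached the 40th percentile on the 2 h and 4 h arrays only, so it passed the filter through the groups in which it was high.

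Mean signal at 4 h was 521 ± 119 (SD, n = 2), against 43.6 ± 31.2 in control. The ratio over control was 20.3 in pair 1 and 9.22 in pair 2, and it rests on a weak control value. On the log2 scale the change was 0.43 ± 0.40 at 1 h, 1.80 ± 0.40 at 2 h and 3.14 ± 0.40 at 4 h (SE), and Cd55 rose at 4 h (limma adjusted p = 0.0087, and 0.0004 with the block). At 2 h it passed with the block alone (0.0177, against 0.116 without it). Over 18 other settings, the adjusted p at 4 h lay between 0.0004 and 0.0658, and it missed the threshold in 1 of them, without the 4 h array numbered 2. The fold change at 4 h depends on the offset added before taking logs: 3.57 with a smaller offset and 2.36 with a larger one.

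Cd55 was also higher at 4 h than at 1 h by 2.71 ± 0.40 (limma adjusted p = 0.0367, and 0.00216 with the block), rank 8 from the top of 5877 probe sets. In this comparison 1 of the 10 probe sets passed without the block (0.476% of all) and 2 with it (5.1% of all). Both 4 h arrays lay above both 1 h arrays for 3 of them (13.4% of all) and below for 1, Cd59b (24.9% of all). Without the block, leaving out any 1 of the 8 arrays ended the call of Cd55 (adjusted p 0.0503 to 0.239). With the block no left-out array did (0.00211 to 0.027).

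The other Cd55 probe set, AF039584_at, gave 35.1 and 47.7 in control, 31.8 and 90.1 at 1 h, 62.1 and 101 at 2 h, and 126 and 142 at 4 h. Both 2 h and both 4 h arrays lay above both control arrays, as did those of 12.9% and 13.4% of all kept probe sets. Its log2 fold change at 4 h was 1.32 ± 0.46, which did not pass (limma adjusted p = 0.295, and 0.0792 with the block). It reached the 40th percentile on no control array, on 1 array each at 1 h and 2 h and on both at 4 h, so it too was kept through the groups in which it was high, and its values are no support for the call of the other probe set.

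Cd59b, which encodes the inhibitor of the membrane attack complex, had strong signals throughout. It gave 2739 and 2980 in control, 2933 and 2659 at 1 h, 2810 and 2242 at 2 h, and 2519 and 1734 at 4 h. Both 4 h arrays lay below both control arrays, as did those of 27.5% of all kept probe sets. The log2 fold change at 4 h was -0.45 ± 0.26 (limma adjusted p = 0.604, and 0.203 with the block), where the median of all kept probe sets was -0.16. Of the 2 complement regulators, Cd55 passed the threshold by 1 of its 2 probe sets and Cd59b did not. The difference between the genes was not tested.

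Counted over all 10 probe sets, both arrays lay above both control arrays for 3 at 1 h, 5 at 2 h and 5 at 4 h. Of all kept probe sets, 10.1%, 12.9% and 13.4% did so. The 5 at 2 h and 4 h were those of Thbd, Plat and Cd55. The median log2 fold change of the 9 kept probe sets was 0.42, 0.97 and 1.18 at 1, 2 and 4 h, beside -0.05, -0.06 and -0.16 over all kept probe sets. The genes were chosen with earlier results of these data known, and both Cd55 probe sets were kept through the groups in which they were high. These counts and medians therefore describe the members and are no test of them.

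Promoter sequence was at hand for 4 of the 8 genes (Plau, Plaur, Tfpi and Cd55), from RefSeq, build GRCr8, and is shown for the gene called without the block and for the urokinase pair, which was not called. Each sequence is the 250 bases before the annotated start, on the strand of the gene, at chr13:44438102-44438351 (minus strand) for Cd55, chr15:3511988-3512237 (minus strand) for Plau and chr1:89181113-89181362 (plus strand) for Plaur. Capitals mark matches on either strand to the half-site of the cAMP response element, TGACG, or to the AP-1 motif, TGANTCA.
Cd55: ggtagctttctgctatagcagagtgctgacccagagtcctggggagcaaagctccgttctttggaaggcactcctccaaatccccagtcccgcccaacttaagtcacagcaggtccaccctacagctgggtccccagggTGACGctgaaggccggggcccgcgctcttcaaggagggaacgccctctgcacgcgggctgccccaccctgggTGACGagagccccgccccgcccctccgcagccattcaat
Plau: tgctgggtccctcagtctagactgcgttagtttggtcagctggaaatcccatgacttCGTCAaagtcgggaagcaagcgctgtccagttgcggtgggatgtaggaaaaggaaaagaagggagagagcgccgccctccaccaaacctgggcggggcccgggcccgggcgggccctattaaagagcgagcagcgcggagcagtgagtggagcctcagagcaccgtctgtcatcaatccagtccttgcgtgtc
Plaur: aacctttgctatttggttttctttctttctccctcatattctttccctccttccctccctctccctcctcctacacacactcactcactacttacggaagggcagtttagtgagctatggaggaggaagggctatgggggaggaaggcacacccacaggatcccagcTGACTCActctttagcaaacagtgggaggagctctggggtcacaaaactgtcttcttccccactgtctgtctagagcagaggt

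Counted from the start, the Cd55 window held TGACG at 2 places, -111 to -107 and -39 to -35, and the Plau window held it once on the other strand. Of 33469 promoter windows of this length, 18.2% held TGACG on either strand. The Plaur window held TGACTCA, a match to TGANTCA, which 6.34% of windows held. None of the 3 windows held the full element TGACGTCA (1.59% of windows; it contains TGACG) or the antioxidant response core TGACNNNGC (10.1%; it can overlap TGACG). These are matches of letters and say nothing of binding.

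Other genes of the clotting, plasminogen and complement systems were called about as rarely as probe sets at large. A set of 6 lists with 83 genes covered coagulation factors and fibrinogen, anticoagulants and their receptors, thrombin receptors and platelet modulators, the plasminogen system, complement components, and complement regulators and receptors. Of these genes, 48 had a probe set and 27 had one that was kept, with 34 kept probe sets. Without the block, 0 passed at 1 h, 2 h or 4 h by limma, where 0.527%, 0.97% and 1.53% of all kept probe sets did. With the block, 0 passed at 1 h and 2 h, and at 4 h 1 was higher and 1 lower, where 4.25% and 3.68% of all kept probe sets were. The median log2 fold change of the 34 was 0.01, -0.10 and -0.30 at 1, 2 and 4 h.

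The 1 that was higher at 4 h with the block was Ptgis, prostacyclin synthase, whose product relaxes vessels and restrains platelets. It gave 2932 and 2872 in control, 3136 and 2697 at 1 h, 3569 and 4077 at 2 h, and 6074 and 4799 at 4 h. Its log2 fold change at 4 h was 0.89 ± 0.24 (limma adjusted p = 0.134, and 0.0104 with the block), and it was higher at 4 h than at 1 h with the block (adjusted p = 0.0155). The 1 that was lower was Cfp, properdin, which stabilises the alternative complement convertase. It gave 174 and 158 in control, 225 and 133 at 1 h, 150 and 81.5 at 2 h, and 39.1 and 55.9 at 4 h. Its log2 fold change at 4 h was -1.46 ± 0.40 (limma adjusted p = 0.152, and 0.0373 with the block). In the comparison of 4 h with 1 h it passed with the block as well (-1.51, limma adjusted p = 0.0413), and its other probe set was too weak to be kept.

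Among the 5 kept genes of the plasminogen system were Serpine2, an inhibitor of plasminogen activators, and Anxa2 and S100a10, which bind plasminogen and Plat at the cell surface. None of the list's 8 kept probe sets passed at any time, also with the block, and their median at 4 h was -0.21. The 6 kept probe sets of complement regulators and receptors, among them Cr1l, a convertase inhibitor of rodents, had a median of -0.51 at 4 h, and 0 passed by limma with or without the block.

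**Figure D3:**
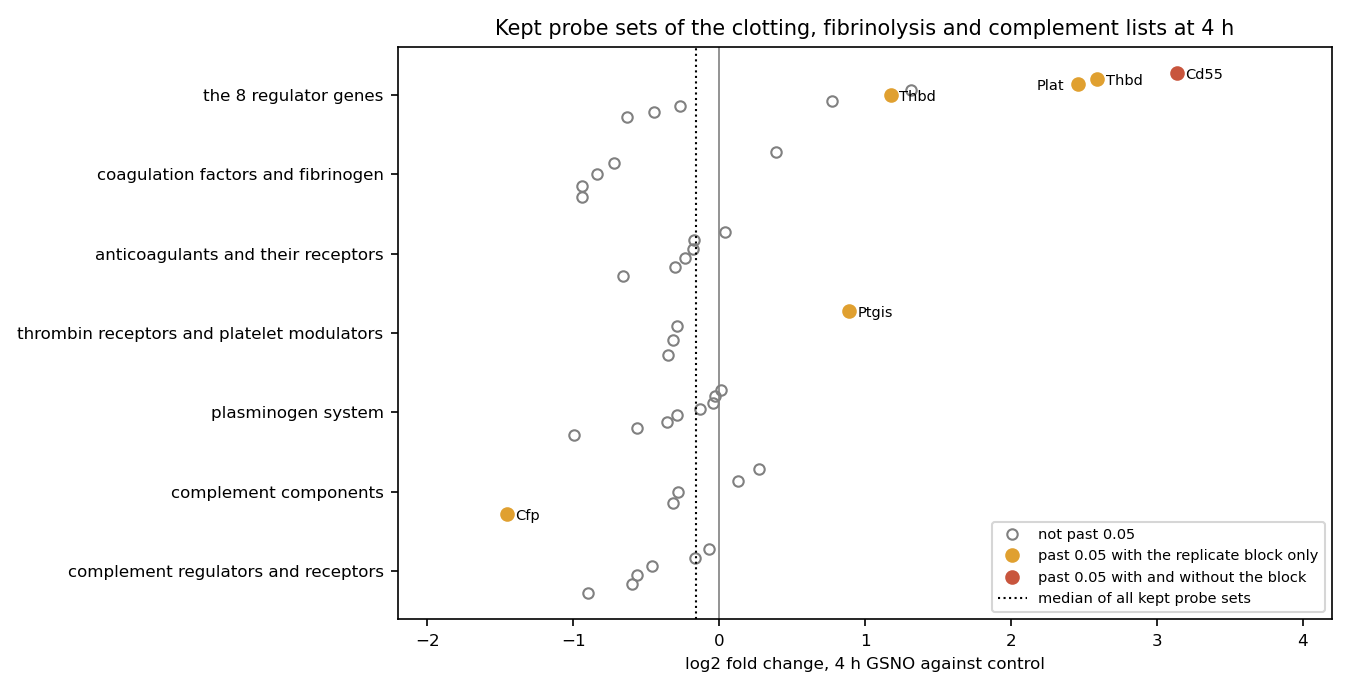
Log2 fold change at 4 h against control of each kept probe set of the 8 regulator genes (top row) and of the 6 wider lists (vertical spread within a row only separates the points). The red point, Cd55, passed an adjusted p of 0.05 with and without the block, orange points passed with the block alone, and the dotted line is the median of all kept probe sets, -0.16. Orange points are Plat and the 2 probe sets of Thbd in the top row, and Ptgis and Cfp below.

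The genes whose signals ran most like those of the moving members were found by Pearson correlation of log2 signal over the 8 arrays, among 4832 kept probe sets with 1 gene name. The points share the arrays and their numbering, so this describes likeness only. For Plat they were Bcl2l11, a promoter of apoptosis (r = 0.985), the early response gene Ier3 (0.973) and the cell surface proteoglycan Sdc4 (0.967). For Thbd read by U90121_at they were Dgat1, an enzyme of triglyceride synthesis (0.964), Csnk1d (0.951) and RT1-DMa (0.939). For Thbd read by AF022742cds_at they were Ninj1 (0.956), Bloc1s2 (0.950) and Ube2b (0.943). For Cd55 read by AF039583_s_at they were the kinesin Kif3c (0.992), Ptprn (0.978) and the growth factor receptor Fgfr1 (0.977). Bcl2l11, at 1.45, 2.07 and 1.89 on the log2 scale at 1, 2 and 4 h, was highest at 2 h like Plat. Sdc4, at 1.47, 1.60 and 1.89, was highest at 4 h instead. Kif3c, at 0.20, 0.95 and 1.89, was like Cd55 highest at 4 h. Among the genes listed for Thbd U90121_at (1.64, 2.20 and 2.59), Dgat1 was at 1.22, 2.08 and 2.21, and RT1-DMa at 0.36, 0.45 and 0.36. The lists of the 2 Thbd probe sets had no gene in common.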

How the data were processed

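Per the series design, the authors analysed scans of 8 rat genome arrays (Affymetrix U34, set A) with GeneChip 5.0 software. Their deposited values are intensity, a linear signal for each probe set. The trimmed mean over all probe sets, leaving out 2% at each end, was 500.7 to 501.0 on every array, so signals were used as scaled. The deposited experiment records, unit other, gave chip lot, experiment and scan day. Log2 was taken of signal plus 21.1, the median over arrays of the 20th percentile, so low signals yield understated fold changes. The filter required a probe set to reach its array's 40th percentile on at least 2 arrays and kept 5877 of 8740. The 59 control features were left out. Genes came from GEO's platform annotation: 7018 probe sets had 1 symbol, 308 several and 1473 none, and 6994 IDs were found in the RefSeq table (GRCr8).

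Tests used limma 3.58.1 in R 4.3.3 (lmFit, eBayes with trend), all 4 groups in 1 fit with 4 residual degrees of freedom, or 3 with the replicate block. Tests were two-sided, with Benjamini-Hochberg adjustment over all kept probe sets. The code was tested on simulated data. The array numbers were taken to pair the arrays because all correlations passed 0.1. The design speaks of separate cell preparations without tying them to array numbers, so p-values may measure spread between arrays only. With 2 arrays a group, their number limits the precision. Every probe set of the 8 genes was named. From the wider lists, a gene was named when a probe set passed with or without the block, and the 3 genes most like each moving member were named. Members of a list named without values only say what the list held. Members and lists were chosen with earlier results of these data known. Alternatives covered offset, filter, scaling, blocks, groups in the fit, variance trend and each array left out.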

Additional observations from a re-analysis of the deposited data

Results flagged for a closer look

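Signal of Cd55 (AF039583_s_at) differed between the 4 h and 1 h groups by limma's test of the difference. The log2 fold change over control was 3.14 at 4 h and 0.43 at 1 h. The difference was 2.71 (limma adjusted p = 0.0367, and 0.00216 in the fit with array number as replicate block). Time in culture and GSNO cannot be told apart in it. The 1 h and control signals of this probe set lay below the 40th percentile on all of their arrays, and it was kept through its 2 h and 4 h signals, so the size of the difference rests on weak values. Taken within same-numbered arrays, the difference was 2.44 for number 1 and 2.98 for number 2.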

How the results depend on the processing

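The number of member probe sets called moved with the error model. In the fit with array number as replicate block it was 2, 3 and 4 at 1, 2 and 4 h against control and 2 for 4 h against 1 h, beside 0, 0, 1 and 1 without it. With the recorded experiment as block it was 1, 3 and 3 against control. Quantile normalization gave 1 at 2 h and 2 at 4 h, and scaling to a common median and the fit of only the 2 groups compared each gave 2 at 4 h. For 4 h against 1 h, 0 were called with the smaller offset, without the variance trend and with only the 2 groups compared. Leaving out 1 array gave 0 at 1 h, 0 to 1 at 2 h, 0 to 2 at 4 h and 0 for 4 h against 1 h. The single member called at 4 h, Cd55, was lost without the 4 h array numbered 2 (2.91, adjusted p = 0.0658). With the block kept and 1 array left out, a setting chosen after seeing the data, the counts were 2 at 1 h, 2 to 4 at 2 h, 3 to 4 at 4 h and 1 to 2 for 4 h against 1 h. In those fits Plat and Thbd (U90121_at) passed in all 8 at each time against control, and Cd55 at 2 h in 5 of 8.

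Directions turned for values that had not been called. F3 at 1 h was 0.0651 with the experiment as block. For 4 h against 1 h, scaling to a common median gave 0.0813 for Plau and 0.10 for Plaur, and quantile normalization gave 0.13 for Plau. Without single arrays, F3 ran from -0.84 to 0.27 at 1 h, from -0.72 to 0.39 at 2 h and from -0.82 to 0.13 for 4 h against 1 h. Plau ran from -0.51 to 0.13 at 1 h, from -0.59 to 0.0519 at 4 h and from -0.20 to 0.044 for 4 h against 1 h, and Plaur from -0.22 to 1.96 at 1 h and from -1.19 to 1.00 for 4 h against 1 h. At 1 h Cd55 ran from -0.0847 to 0.94 (AF039583_s_at) and from -0.23 to 0.84 (AF039584_at), and Cd59b from -0.10 to 0.0376. Plat ran from -0.27 to 0.85 for 4 h against 1 h. The cause was not tested. Signals of Tfpi, Plau and control Cd55 lie near the array background, which limits them. The F3 signal of the 4 h array numbered 1 is weak as well.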

Other observations

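The 2 array numbers differed in level for some members in the same direction in every group, control included. Thbd read by U90121_at was 2.29, 2.03, 2.78 and 2.50 times as high on the array numbered 2 as on the array numbered 1 in control and at 1 h, 2 h and 4 h. Plat ran the other way, at 0.633, 0.459, 0.463 and 0.672 times, and so did Plaur, at 0.505, 0.21, 0.35 and 0.585 times. Of all kept probe sets, 24.6% were higher on the array numbered 2 in all 4 groups and 16.0% on the array numbered 1. Scan day goes with the array number, chip lot does so except for array 1 at 1 h, and no source used here ties the cell preparations to the numbers.

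The 2 plasminogen activators are given side by side. Plat rose at each time with the block. Plau had its lowest signals, 46.8 and 33.5, at 2 h, the time at which Plat had its highest mean. Both of these Plau signals lay below the 40th percentile of their arrays, and Plau passed in neither fit. The difference between the genes was not tested.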
